A study of Mus musculus with 12 samples.

Results

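MHC class II molecules display peptides from engulfed or recycled proteins to CD4 T cells, and 10 genes of this route were described in subcutaneous fat and liver of mice whose hepatocytes overexpressed human HKDC1 (hHKDC1 OE) or received a null vector. The members were chosen by name: H2-Aa, H2-Ab1, H2-Eb1, Cd74, Ciita, H2-DMa, H2-DMb1, H2-DMb2, H2-Oa and H2-Ob, which are 10 of the 54532 genes in the count table, and each was matched by its symbol to exactly 1 row. Male mice were injected in the tail vein at 10 weeks of age with AAV8-TBGp, an adeno-associated virus whose thyroxine-binding globulin promoter is active in hepatocytes, and were kept on a low-fat diet for 16 weeks before tissue was taken. The null group carried the same vector without HKDC1, so both groups share the virus, the promoter and the diet, and fat is not the tissue in which the promoter is active. RNA-seq was performed on 12 libraries, 3 each of null liver, hHKDC1 OE liver, null fat and hHKDC1 OE fat. The sample titles and treatments call these groups null and HKDC1 overexpression, whereas the sample descriptions call 4 of the 6 hHKDC1 OE libraries knockouts, and the titles were followed. The strain, and which fat and liver libraries share a mouse, are not given in the sources used here, and p-values measure the spread between these libraries.

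In professional antigen-presenting cells (dendritic cells, macrophages and B cells), an alpha and a beta chain pair in the endoplasmic reticulum around the invariant chain, which is encoded by Cd74 and keeps the peptide groove closed until proteases in endosomes cut it down to a fragment called CLIP. H2-DM, made of H2-DMa with H2-DMb1 or H2-DMb2, then exchanges CLIP for antigen peptides, and H2-O, made of H2-Oa and H2-Ob, restrains H2-DM and is known mainly from B cells. Transcription of the peptide-binding chains and of Cd74 is switched on mainly by CIITA, a coactivator that does not bind DNA itself but sits on an assembly of RFX, CREB and NF-Y proteins at a short promoter module with an X box and a Y box.

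The members lie close together on the genome, and their promoters share short stretches of sequence. In GRCm38, 8 of the 10 members lie within 223860 bases of chromosome 17, from 34092340 to 34316199, while Ciita and Cd74 lie on other chromosomes. RefSeq promoters (GRCm38.p6, 250 bases before to 50 bases after the start of a gene) were matched for 7 of the 10 members, and the windows shown here lie upstream of the RefSeq start and outside exons annotated in GENCODE. They are the 3 such windows with both shared stretches and, as an example with 1 of them, that of H2-Aa. For H2-DMb2 the RefSeq start lies inside the span that the deposited table gives the gene (34143307 to 34151553), and both H2-DMa entries lie upstream of its span (34135182 to 34139101). The windows run 5′ to 3′ on the strand of the gene, and capitals mark the X-box letters AACNNATGATG and the Y-box letters GATTGG.
H2-Eb1 (chr17:34305772-34305818, plus strand): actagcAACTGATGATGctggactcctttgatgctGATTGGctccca
H2-Ob (chr17:34238814-34238858, plus strand): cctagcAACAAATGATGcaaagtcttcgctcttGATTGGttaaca
H2-DMb2 (chr17:34145122-34145169, plus strand): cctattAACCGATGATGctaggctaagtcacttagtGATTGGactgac
H2-Aa (chr17:34287861-34287909, minus strand): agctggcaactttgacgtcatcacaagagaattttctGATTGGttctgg
In H2-Eb1 the X letters began 89 bases and the Y letters 60 bases before the start, with 18 bases between them. The corresponding distances were 85 and 58 bases with 16 bases between in H2-Ob, 121 and 91 with 19 between in H2-DMb2, and 92 and 62 with 19 between in H2-DMb1, whose window overlaps an annotated exon and is not printed. Of the letters searched, H2-Aa and H2-Oa held the Y letters alone, 49 and 44 bases before the start. An X box spelled with other letters would not be marked, so its absence from these promoters is not shown. Of the H2-DMa entries, the upstream entry held neither motif and the other held the Y letters 199 bases before the start. Searched on both strands, the X letters were in 0.137% and the Y letters in 16.1% of 32817 promoters of the same length, and 0.0335% (11 promoters) held both. The X letters were set by what 4 of these promoters share and were picked after the promoters had been read, so their presence in those 4 follows from the choice, and a match describes the sequence and is no evidence of a bound factor.

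Depth on genes ranged from 15496019 to 19954971 counts per library. Mouse Hkdc1 had 0 to 8 counts in each library, and the human transgene was not analysed here. The adipocyte marker Adipoq, which encodes adiponectin, had at least 27280 counts in each fat library and at most 5 in each liver library, and the hepatocyte marker Alb was also counted in fat, at 8463 to 89742 counts. Libraries of hHKDC1 OE fat were unlike each other. In replicates 1 and 3 the 12 B cell markers summed to 1157 and 874 CPM, whereas replicate 2 had 67.8 CPM and the null fat libraries 2.91 to 6.19 CPM. CPM here are counts scaled to a library total of 1e6 after TMM normalization within a tissue.

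In fat, each of the 10 members was higher in every hHKDC1 OE library than in every null library. Their summed level was 1010, 632 and 1396 CPM in null fat and 4465, 1996 and 3762 CPM in hHKDC1 OE fat, a mean of 1013 ± 382 against 3408 ± 1272 CPM (SD, n = 3). Groups that do not overlap were found for 22.7% of the 16380 genes tested in either direction and for 12.5% in this direction, and a log2 fold change above 0 for 46.1%. With edgeR's quasi-likelihood test and Benjamini-Hochberg adjustment over those genes, 0 of the 10 members passed an adjusted p of 0.05, and 0% of the 16380 genes did. At an unadjusted p under 0.05, 10 of 10 members were higher, and 11.3% of all genes tested were (17.7% in either direction). DESeq2 called 10 of the 10, and 4.84% of the 29853 genes given to it (1446 genes), and limma on log2(FPKM + 1) called 0 members. The median log2 fold change was 1.82 over the members and -0.05 over all genes tested. Each member had an exact permutation p of 0.1 (two-sided), the smallest that 3 libraries against 3 allow. In bulk tissue, more cells of a type and more RNA per cell cannot be told apart.

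**Figure D1:**
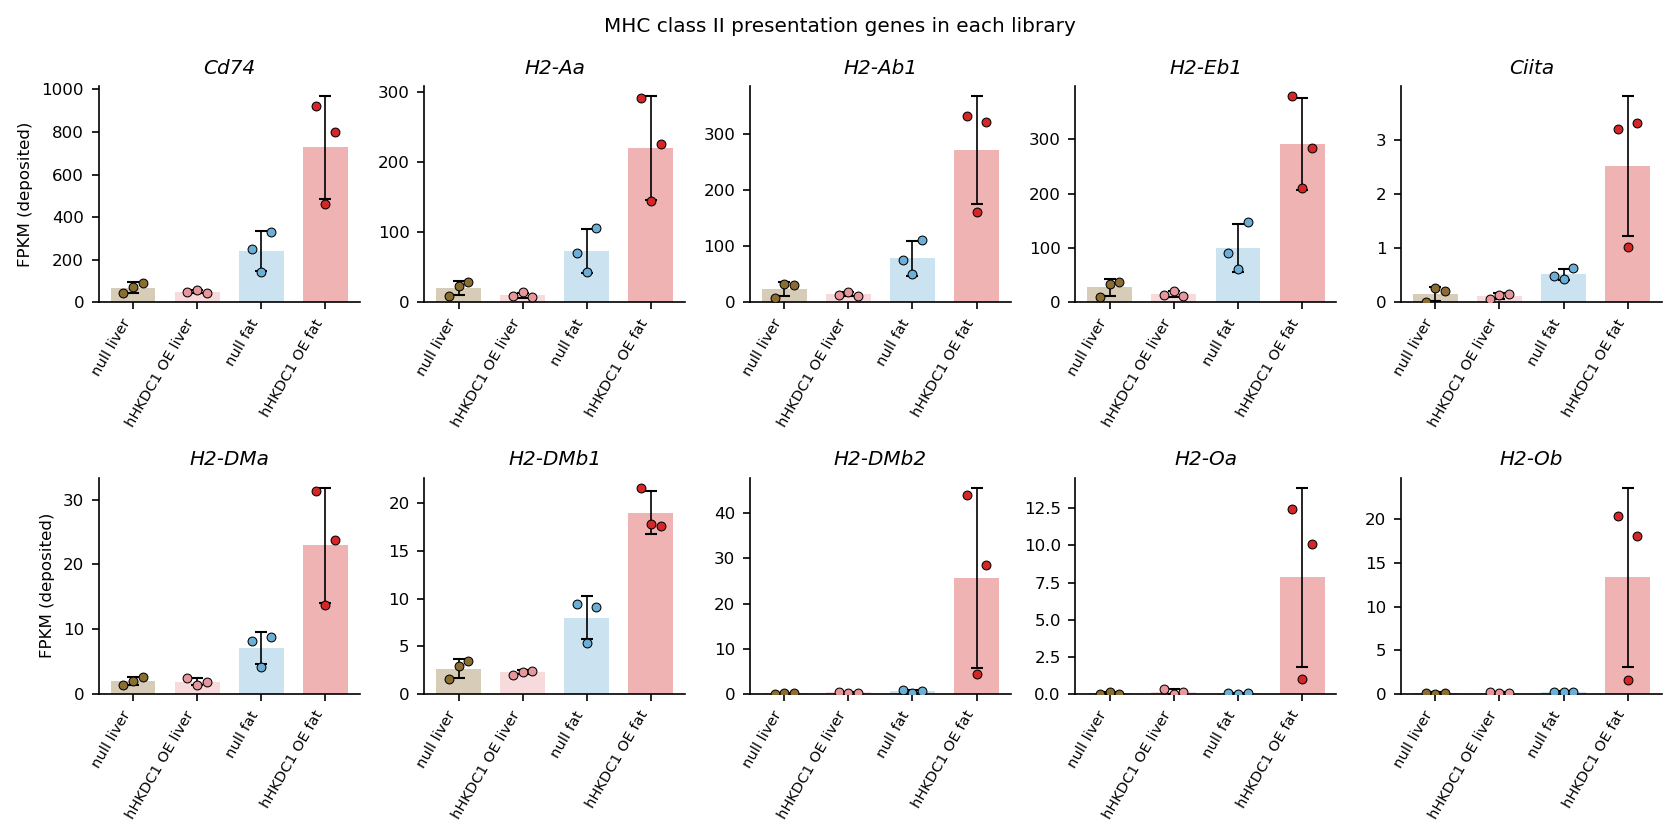
Deposited FPKM (count over length, times 1 factor per library that is not the depth on genes) of each member, with 1 point per library. Bars show the group mean and error bars 1 SD (n = 3), and each panel has its own axis, starting at 0. The 3 hHKDC1 OE fat libraries lie above the 3 null fat libraries in every panel, and the liver libraries lie lowest for 8 of the 10 genes.

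The genes of the peptide-binding chains differed by a similar factor. H2-Aa, the alpha chain of I-A, had 177, 113 and 262 CPM in null fat and 782, 358 and 605 CPM in hHKDC1 OE fat. H2-Ab1, its beta chain, had 165, 113 and 239 CPM against 781, 350 and 753 CPM. H2-Eb1, the beta chain of I-E, had 144, 98.8 and 231 CPM against 644, 332 and 482 CPM. In all 3 genes replicate 2 was the lowest library of its group, and the groups did not overlap. The log2 fold changes were 1.66 (SE 0.40) for H2-Aa, 1.87 (SE 0.40) for H2-Ab1 and 1.62 (SE 0.37) for H2-Eb1. By edgeR their unadjusted p values were 0.00394, 0.00221 and 0.00336 and their adjusted p 0.134, 0.133 and 0.134.

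Cd74, the invariant chain, lies on chromosome 18 from 60803848 to 60812646 and was the most abundant member in each of the 4 groups. It had 477, 280 and 615 CPM in null fat and 1870, 861 and 1613 CPM in hHKDC1 OE fat, a log2 fold change of 1.66 (SE 0.40, unadjusted p = 0.00414, adjusted p = 0.135 by edgeR). Ciita, the coactivator, lies on chromosome 16 from 10480059 to 10528418 and was among the least abundant, with 6.25, 5.76 and 8.01 CPM in null fat and 43.7, 13.0 and 45.3 CPM in hHKDC1 OE fat. The hHKDC1 OE libraries 1 and 3 were close to each other and replicate 2 lay between them and the null libraries. The log2 fold change of Ciita was 2.35 (SE 0.47, unadjusted p = 0.00158, adjusted p = 0.133 by edgeR).

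Genes of the peptide editor H2-DM showed separate patterns. H2-DMa, the alpha chain, had 17.9, 9.53 and 19.1 CPM in null fat and 74.0, 29.9 and 55.8 CPM in hHKDC1 OE fat. H2-DMb1, a beta chain, had 18.9, 10.95 and 17.8 CPM against 46.1, 35.03 and 37.4 CPM, with no overlap between the groups. The log2 fold changes were 1.78 (SE 0.40, adjusted p = 0.133 by edgeR) for H2-DMa and 1.31 (SE 0.25, adjusted p = 0.133 by edgeR) for H2-DMb1, the smallest log2 fold change of the 10 members. H2-DMb2, the neighbouring gene for another beta chain, was nearly silent in null fat with 33, 9 and 28 counts (2.00, 0.557 and 1.49 CPM). In hHKDC1 OE fat it had 2286, 206 and 1139 counts (108, 10.05 and 69.9 CPM), so that replicate 2 lay above the null libraries but far below the other hHKDC1 OE libraries. Its log2 fold change was 5.52 (SE 0.95, unadjusted p = 0.000619, adjusted p = 0.133 by edgeR).

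H2-Oa and H2-Ob, the chains of the H2-DM inhibitor, followed the pattern of H2-DMb2. H2-Ob counts were 19, 13 and 19 in null fat (1.15, 0.805 and 1.01 CPM) and 1956, 139 and 1330 in hHKDC1 OE fat (92.5, 6.78 and 81.6 CPM). For H2-Oa the null fat libraries held 1, 0 and 3 counts and the hHKDC1 OE fat libraries 497, 36 and 309 counts (23.5, 1.76 and 19.0 CPM). Replicate 2 was again the lowest hHKDC1 OE library and still above each null library. The log2 fold changes were 5.92 (SE 0.99, adjusted p = 0.133 by edgeR) for H2-Ob and 7.46 (SE 1.27, adjusted p = 0.133 by edgeR) for H2-Oa, and the fitted value of H2-Oa rests on 4 counts in null fat. Over the alternative fits the values ranged from 2.76 to 6.44 for H2-Ob, from 2.68 to 8.58 for H2-Oa and from 2.88 to 6.02 for H2-DMb2. H2-Oa shares 8.98% of its 100-base transcript windows with BC051537 on the opposite strand, which a library that keeps no strand cannot tell apart. H2-DMb1 and H2-DMb2, both on the plus strand, share 11.3% and 10.3% of theirs with each other. H2-DMa shares 6.58% with Brd2 in GENCODE vM21 transcripts, where its start lies 15641 bases from that of the deposited gene. The deposited H2-DMa span overlaps 0 other genes. Ciita shares 0.324% with Dexi on the opposite strand, and the other 5 members share none. The assignment of reads from such windows is uncertain where the windows lie in the counted gene.

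**Figure D2:**
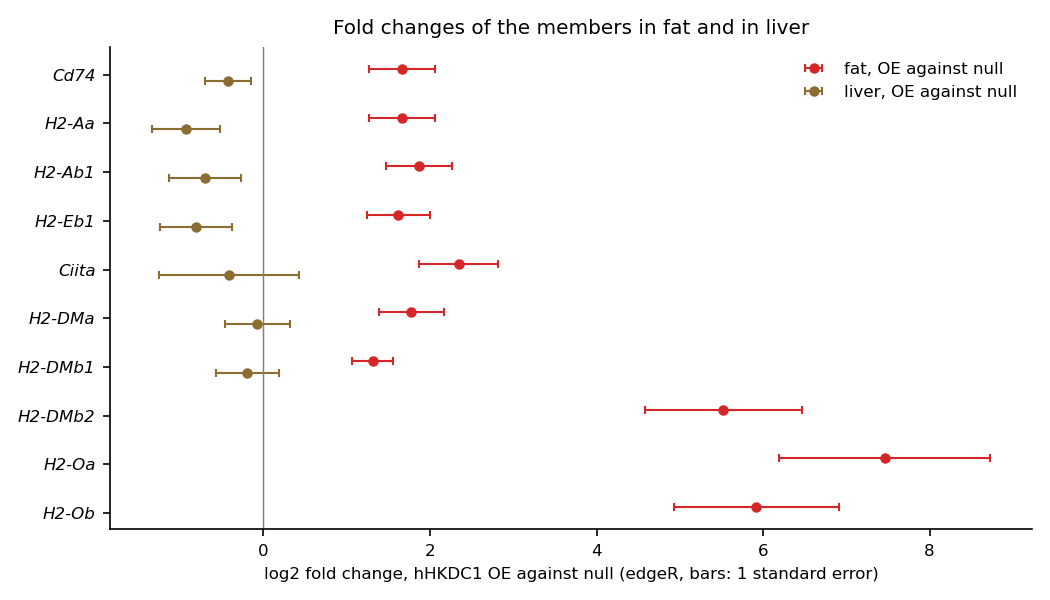
Log2 fold change of hHKDC1 OE against null for each member in fat and in liver, from edgeR, with bars of 1 standard error. In fat 7 members lie between 1.31 and 2.35 and H2-DMb2, H2-Ob and H2-Oa between 5.52 and 7.46; in liver the 7 tested members lie between -0.93 and -0.07, and the other 3 had too few counts.

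Library by library, the members split in the same manner. Relative to the null fat mean, H2-Ab1 was 4.53, 2.03 and 4.37 times as high in hHKDC1 OE replicates 1, 2 and 3, and H2-DMb1 was 2.90, 2.20 and 2.36 times as high. H2-DMb2 was 80.0, 7.44 and 51.7 times and H2-Ob 93.4, 6.85 and 82.4 times as high. Replicate 2 therefore stood near the other libraries for H2-DMb1 and far below them for H2-DMb2 and H2-Ob. Without replicates 1 and 3, an alternative added after seeing the data that sets 1 library against 3 and assumes it varies like the null libraries, the log2 fold changes of the 10 members were 0.91 to 4.40, and 0 were called at adjusted p of 0.435 to 0.897 by edgeR. Without replicate 2, 10 of 10 were called, with adjusted p from 9.44e-05 to 0.0156, while 18.9% of all genes tested were called in that fit.

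Markers of other cell types were also higher in hHKDC1 OE fat. All 12 B cell markers were higher (12 of 12 at an unadjusted p under 0.05 by edgeR, 0 at an adjusted p under 0.05), and their sum was 234, 13.7 and 176 times the null mean in replicates 1, 2 and 3. Replicate 1 was highest and replicate 2 lowest in this sum, as in 9 of the 10 members. Ciita was the exception, with replicate 3 highest. All 8 T cell markers were higher, with sums of 6.37 to 17.4 CPM in null fat and 39.8 to 548 CPM in hHKDC1 OE fat. Cd3d, part of the T cell receptor complex, ranged from 4 to 16 counts without and from 81 to 1081 counts with hHKDC1 OE. The lymph node venule and stroma list (9 rows of the table) summed to 1.49 to 5.40 CPM with 6 or 7 rows at 0 in null fat and to 11.7 to 153 CPM in hHKDC1 OE fat, and its defining marker Glycam1 was counted at most 1 time in a null library and 591, 43 and 348 times in the hHKDC1 OE libraries. Whether the dissected fat held lymph node tissue is not given in the sources used here, and the part of lymph node or of these cell types in the difference of the members was not tested.

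Lists of myeloid and tissue cells differed from one another. All 8 markers of conventional dendritic cells were higher in hHKDC1 OE fat (6 at an unadjusted p under 0.05), and their sum was 36.5 to 46.1 CPM in null fat and 64.3 to 204 CPM in hHKDC1 OE fat. Their sum was 4.30, 1.59 and 5.05 times the null mean in replicates 1, 2 and 3, against 4.41, 1.97 and 3.72 times for the members. In replicates 1 and 3 much of this sum was Ccr7, a chemokine receptor that T and B cells also carry, with 0.303, 0.248 and 0.801 CPM in null fat and 89.8, 6.83 and 103 CPM in hHKDC1 OE fat. Without Ccr7, a choice made after seeing the data, the other 7 markers were 2.11, 1.44 and 2.53 times the null mean. Of 12 macrophage markers, 9 were higher (5 at an unadjusted p under 0.05) and 3 lower (1 at an unadjusted p under 0.05, the phagocytic receptor Mertk), and their sum was 416 to 866 CPM in null fat and 1097 to 1561 CPM in hHKDC1 OE fat. Lyz2, a lysozyme of myeloid cells, had a mean of 168 ± 61.9 CPM in the null libraries and 612 ± 259 CPM in the hHKDC1 OE libraries (SD, n = 3). Without Lyz2, a choice likewise made after seeing the data, the other 11 markers summed to 319 to 670 CPM against 581 to 771 CPM, so that the groups overlapped. Adgre1, the macrophage marker F4/80, was counted 331, 158 and 413 times in null libraries and 438, 745 and 549 times in hHKDC1 OE libraries, so that replicate 2 was here the highest library. The Kupffer cell list summed to 5.01 to 14.2 CPM in null fat and to 354, 27.3 and 235 CPM in hHKDC1 OE replicates 1, 2 and 3, while its defining marker Clec4f stayed at 9 to 91 counts in all 6 fat libraries. The 4 plasmacytoid dendritic cell markers summed to 172 to 201 CPM in null fat and 194 to 268 CPM in hHKDC1 OE fat, mostly from Tcf4 and Bst2, whose groups overlapped. The other markers of this list, Siglech and Ccr9, had log2 fold changes of 3.27 (SE 0.97, adjusted p = 0.168) and 3.16 (SE 0.73, adjusted p = 0.134) by edgeR, with no overlap between the groups. The adipocyte list was 0.55, 1.01 and 0.56 times and the hepatocyte list 0.50, 0.32 and 0.46 times the null mean. The part of these lists in the difference of the members was likewise not tested.

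**Figure D3:**
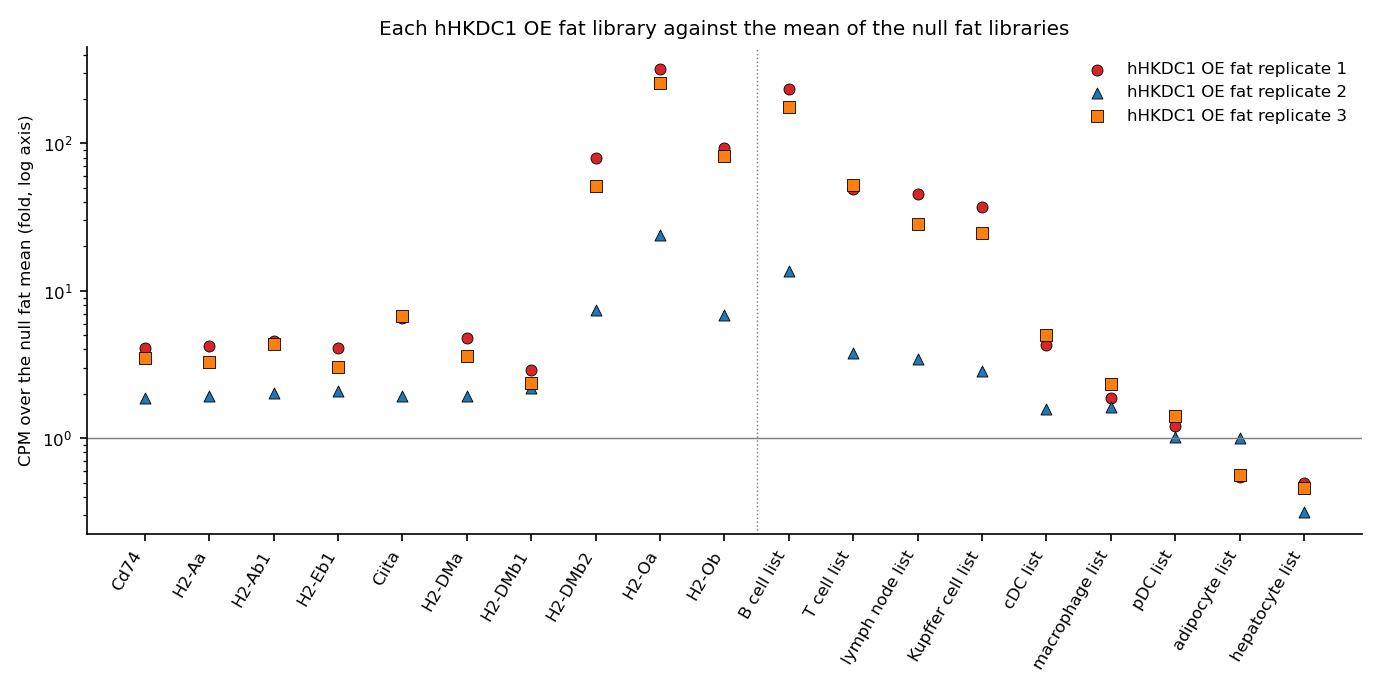
Level in each hHKDC1 OE fat library divided by the null fat mean, in CPM on a log axis, for the 10 members (left of the dotted line) and for summed marker lists (right; cDC and pDC are conventional and plasmacytoid dendritic cells). Replicate 2 lies at 1.88 to 2.20 for the 7 members on the left and at 6.85 to 23.9 for H2-DMb2, H2-Oa and H2-Ob, and at 13.7 for the B cell list.

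The composition of the group was compared by ratios of FPKM, which are per length and do not depend on the scaling of a library. The ratio of H2-Aa to H2-Ab1 was 0.936, 0.878 and 0.957 in null libraries and 0.874, 0.892 and 0.702 in hHKDC1 OE fat (exact permutation p = 0.2), and that of Cd74 to H2-Ab1 was 3.36, 2.89 and 2.98 against 2.78, 2.85 and 2.49 (exact permutation p = 0.1). The groups overlapped for H2-Aa to H2-Ab1 and did not for Cd74 to H2-Ab1, whose mean was 3.08 without and 2.71 with hHKDC1 OE. The ratio of H2-DMb2 to H2-DMb1 was 0.092, 0.044 and 0.073 in null libraries and 2.04, 0.249 and 1.62 in hHKDC1 OE fat, and H2-DMb2 was thus above H2-DMb1 in replicates 1 and 3 only. The ratio of H2-Ob to H2-DMa, inhibitor chain to editor chain, was 0.034, 0.044 and 0.028 against 0.651, 0.118 and 0.762. For the H2-DMb2 and H2-Ob ratios, as for Cd74 to H2-Ab1, the groups did not overlap, at the exact permutation p of 0.1 that is the smallest the design allows. Of 16 such tests in fat and liver none could pass after Benjamini-Hochberg adjustment. In share of the summed member FPKM, H2-DMb2 took 0.08% to 0.17% in null libraries and 2.14%, 0.44% and 1.65% in hHKDC1 OE libraries, and Cd74 took 46.3% to 49.7% against 44.9% to 46.1%.

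**Figure D4:**
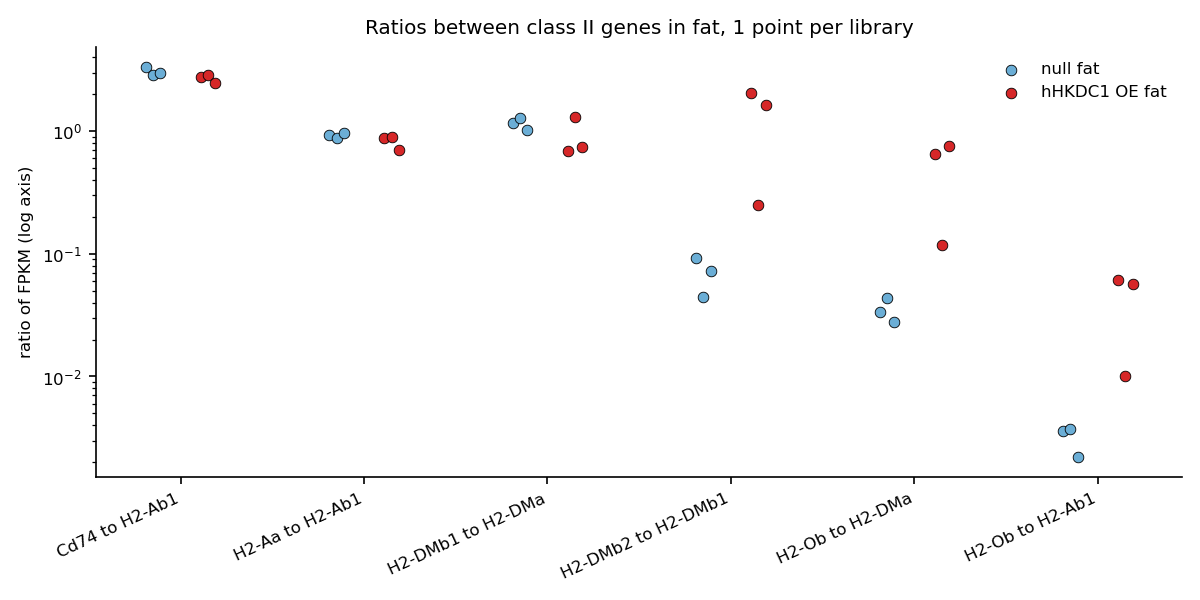
Ratios of FPKM between members in fat on a log axis, with 1 point per library. The ratios of Cd74, H2-Aa and H2-DMb1 overlap or nearly touch between null and hHKDC1 OE fat, while those with H2-DMb2 or H2-Ob in the numerator are separated, with replicate 2 the lowest hHKDC1 OE point (0.249, 0.118 and 0.010).

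Other genes of the pathway were followed in fixed lists, and none of their genes passed an adjusted p of 0.05 in fat by edgeR. H2-Eb2, a further class II beta chain, had 0 counts in each null fat and each liver library and 344, 17 and 309 counts in hHKDC1 OE fat, at least 220-fold higher against a floor of 3 counts over the null fat group. H2-Ea-ps, annotated as a pseudogene of the I-E alpha chain, had 0 counts in all 12 libraries. Of 7 genes for proteins that assemble on the class II promoter, 6 were higher and 1 lower in hHKDC1 OE fat (median log2 fold change 0.40), with 2 at an unadjusted p under 0.05. Rfx5, the DNA-binding RFX subunit, had 7.89, 7.55 and 7.85 CPM in null fat and 17.02, 8.49 and 13.7 CPM in hHKDC1 OE fat (log2 fold change 0.75, SE 0.29, unadjusted p = 0.0372 by edgeR). The groups did not overlap, although replicate 2 was close to the null libraries. Of 7 processing enzymes, 3 were higher at an unadjusted p under 0.05 and the 4 others had log2 fold changes from -0.34 to -0.02. Ctss, cathepsin S, which trims the invariant chain, had 33.4, 18.3 and 34.1 CPM in null fat and 227, 62.5 and 310.0 CPM in hHKDC1 OE fat (log2 fold change 2.81, SE 0.58). Ifi30, the lysosomal thiol reductase GILT, had 13.5, 11.3 and 19.8 CPM against 139, 25.8 and 166 CPM (log2 fold change 2.89, SE 0.65). In both genes the groups did not overlap and replicate 2 was the lowest hHKDC1 OE library. Of the ubiquitin ligases that remove class II molecules, March1 had a log2 fold change of 1.59 (SE 0.52) and March8 of -0.31 (SE 0.13).

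Costimulation and interferon genes were also read. The 3 costimulation genes Cd40, Cd80 and Cd86 had log2 fold changes of 3.92 (SE 0.86), 1.11 (SE 0.64) and 1.97 (SE 0.60) in fat, with 2 of 3 at an unadjusted p under 0.05 by edgeR. Of 6 tested genes of the interferon gamma path, the inducer of CIITA in many cells, 4 were higher and 2 lower in hHKDC1 OE fat. Ifng itself was counted 1, 2 and 0 times without and 8, 0 and 4 times with hHKDC1 OE in fat, too few to be tested. Irf1, an interferon-induced transcription factor, had 38.1, 52.5 and 41.4 CPM against 108, 53.6 and 98.9 CPM (log2 fold change 0.98, SE 0.28). The groups did not overlap, although replicate 2 at 53.6 CPM was close to the highest null library at 52.5 CPM.

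Genes of the MHC class I route, which presents peptides made inside the cell, had values in fat that did not pass an adjusted p of 0.05 in edgeR. Besides class I chains the list holds the coactivator Nlrc5 and genes of chaperones and peptide processing, so its median is not that of class I molecules alone. All 15 had a log2 fold change above 0, with a median of 0.46 beside 1.82 over the class II members, and 6 of 15 had an unadjusted p under 0.05. The difference between the class I and class II genes was not tested. H2-K1, a class I heavy chain, had 1320, 1582 and 1368 CPM in null fat and 2371, 1686 and 2668 CPM in hHKDC1 OE fat (log2 fold change 0.66, SE 0.26). B2m, the class I light chain, had 2328, 2393 and 2381 CPM against 2102, 2349 and 3358 CPM (log2 fold change 0.14, SE 0.27), so its groups overlapped. Tap1, which transports peptides, had 35.7, 51.1 and 47.6 CPM against 165, 51.2 and 155 CPM (log2 fold change 1.46, SE 0.42), and replicate 2 lay at the level of the highest null library. Nlrc5 had a log2 fold change of 0.46 (SE 0.23), with overlapping groups.

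**Figure D5:**
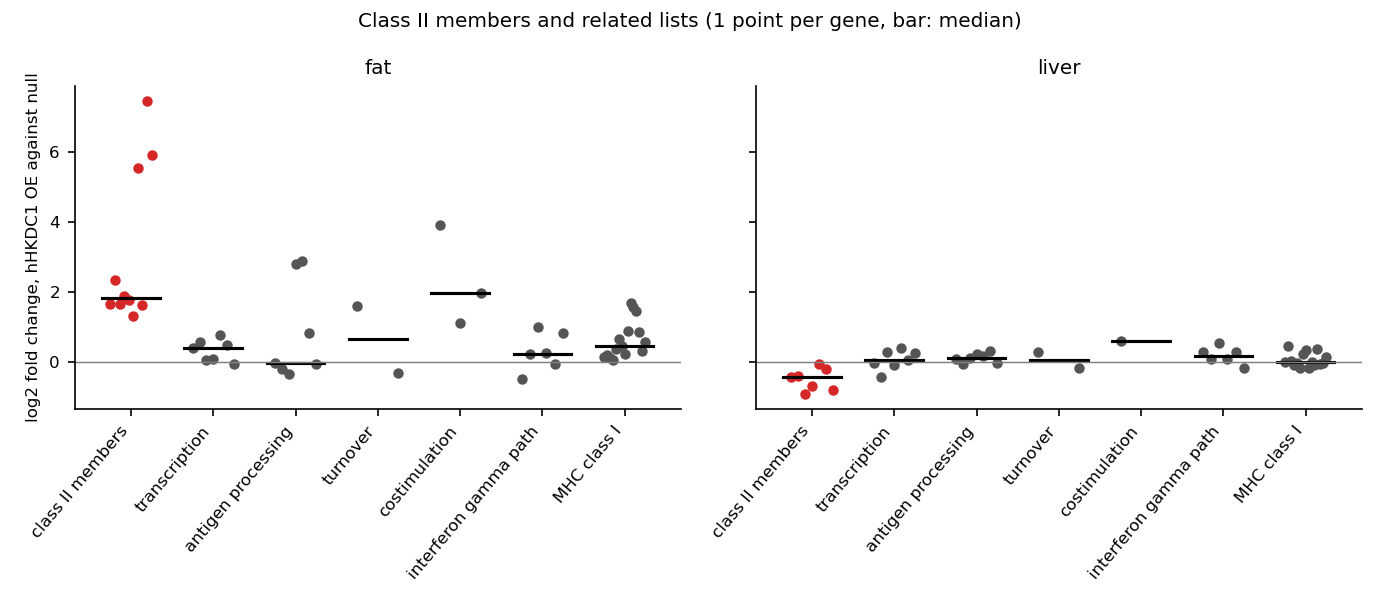
Log2 fold change of hHKDC1 OE against null in fat (left) and liver (right), with 1 point per tested gene and a bar at the median of each list; H2-Eb2, absent from null fat, is not drawn. In fat the members have a median of 1.82 and the class I genes 0.46; in liver they have -0.42 and -0.02.

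In liver, the tissue that carries the transgene, each tested member had a log2 fold change below 0, as had 48.9% of all genes. Cd74 had 42.5, 76.7 and 97.5 CPM in null liver and 52.0, 64.8 and 44.6 CPM in hHKDC1 OE liver. H2-Aa had 11.8, 31.9 and 40.2 CPM against 12.9, 20.7 and 10.5 CPM, H2-Ab1 10.1, 38.8 and 38.0 against 16.1, 23.5 and 13.9, and H2-Eb1 8.70, 29.9 and 33.7 against 11.3, 19.0 and 10.8. Null replicate 1 was low in all 4 genes, within or below the range of the hHKDC1 OE libraries, while null replicates 2 and 3 were above it. Of the 7 members with enough counts, 7 had a log2 fold change below 0, from -0.93 for H2-Aa (SE 0.41) to -0.07 for H2-DMa (SE 0.39), with a median of -0.42 against 0.01 over the 13351 genes tested. With 1 library left out, values above 0 were reached by Ciita (0.12), H2-DMa (0.18) and H2-DMb1 (0.062). By edgeR 0 of 7 passed an adjusted p of 0.05, as did 0% of all genes, and limma also called 0. DESeq2 called 0 of 7 members and 0.379% of the 24792 genes given to it. An unadjusted p under 0.05 was reached by 1 member, H2-Aa, which was lower (unadjusted p = 0.0475, adjusted p = 0.710 by edgeR), against 6.94% of all genes in either direction and 3.05% in this direction. No member had groups that do not overlap, against 12.5% of all genes in either direction and 6.18% with lower levels. Without a filter on low counts edgeR called 3 members lower, H2-Aa, H2-Ab1 and H2-Eb1, and in either direction 1.32% of the 24792 genes then tested (327 genes).

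The remaining members had low counts in liver. Ciita had 1, 28 and 24 counts in null liver and 7, 19 and 20 in hHKDC1 OE liver, so that null replicate 1 was nearly without it as it was low in the chain genes. H2-DMb2 had 1, 3 and 6 against 9, 6 and 7 counts, H2-Ob 3, 0 and 6 against 6, 6 and 4, and H2-Oa 0, 2 and 0 against 5, 0 and 2. These 3 genes were not tested. H2-DMa had 27, 36 and 51 counts against 48, 32 and 41, and H2-DMb1 26, 50 and 62 against 36, 50 and 51, with overlapping groups. In the related lists, 4 of 7 promoter-assembly genes, 5 of 7 processing enzymes, 5 of 6 interferon gamma genes and 7 of 15 class I genes had a log2 fold change above 0 in liver. Of these genes Irf1 alone had an unadjusted p under 0.05, with a log2 fold change of 0.55 (unadjusted p = 0.0153, adjusted p = 0.606 by edgeR).

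Macrophage and Kupffer cell markers had log2 fold changes of the opposite sign in liver. Of 12 macrophage markers 11 were higher in hHKDC1 OE liver (5 at an unadjusted p under 0.05 by edgeR, 0 adjusted), and their sum was 156 to 255 CPM in null liver and 238 to 430 CPM in hHKDC1 OE liver. All 5 Kupffer cell markers were higher at an unadjusted p under 0.05 by edgeR. Of all genes, 6.94% were past that threshold in either direction. The Kupffer sums were 81.0, 93.6 and 149.5 CPM in null liver and 320, 150.2 and 147.9 CPM in hHKDC1 OE liver. These groups overlapped, and hHKDC1 OE replicate 1 stood above the others. Clec4f had 626, 691 and 1129 counts against 1846, 1318 and 1334. The conventional dendritic cell list was 4.50, 8.91 and 13.9 CPM in null replicates 1, 2 and 3 and 7.67 to 9.83 CPM in hHKDC1 OE liver. The B cell list was at 1.60 to 5.63 CPM in null liver and 3.30 to 5.40 CPM in hHKDC1 OE liver, and the T cell list at 15.97 to 26.1 and 14.2 to 18.5 CPM. The 8 hepatocyte markers summed to 111262 to 115269 CPM in null liver and 70221 to 94255 CPM in hHKDC1 OE liver, with no overlap, and 3 were higher and 5 lower, 2 of these at an unadjusted p under 0.05 (0 adjusted). Alb had a log2 fold change of -0.62 (SE 0.22, adjusted p = 0.613 by edgeR). Within null liver, replicate 1 was lowest and replicate 3 highest in all 5 of the macrophage, Kupffer, conventional dendritic, B and T cell lists and in the summed members (76.7, 185 and 219 CPM). In the plasmacytoid dendritic cell list replicate 1 was lowest and replicate 2 highest (183, 214 and 197 CPM). The part of these cell types in the levels of the members was not tested.

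Class II genes were more abundant in null fat than in null liver. Cd74 had 251, 145 and 331 FPKM in null fat and 42.3, 73.7 and 92.7 FPKM in null liver, and H2-Ab1 had 74.7, 50.02 and 111 FPKM against 8.67, 32.1 and 31.1 FPKM. In edgeR, 8 members were tested and all 8 had a log2 fold change above 0, from 1.45 for H2-Ob (SE 0.81) to 1.79 for H2-Aa (SE 0.46), as had 52.6% of all genes. With library size alone as the scaling these were 2.31 for H2-Ob and 2.68 for H2-Aa, beside a median of 0.97 over all genes, and Ciita and H2-Ob moved most between alternatives, from 0.40 to 2.52 and from 0.19 to 2.38. Ciita was 1.07 without null liver replicate 1, and H2-Ob 0.87 without null liver replicate 2 and 2.38 without null liver replicate 3. The groups did not overlap in 8 of 8, against 71.6% of all genes in either direction and 37.8% in this direction. An adjusted p under 0.05 was reached by 6 of 8, against 64.3% of the 15259 genes tested in either direction and 33.8% in this direction, so that most genes differed between the tissues. The 6 were H2-Aa (adjusted p = 0.00963 by edgeR), H2-Ab1 (0.0184), H2-Eb1 (0.0139), Cd74 (0.00395), H2-DMa (0.00314) and H2-DMb1 (0.00703), which rose together in fat relative to liver, while Ciita (adjusted p = 0.0816) and H2-Ob (0.153) did not pass. H2-DMb2 and H2-Oa were not tested in this comparison. Of 12 macrophage markers 11 were higher in null fat, 4 of them at an adjusted p under 0.05 by edgeR, with sums of 416 to 866 CPM against 156 to 255 CPM when each tissue is normalized by itself. Of 6 tested conventional dendritic cell markers 5 were higher, 2 of them called, with sums of 36.5 to 46.1 against 4.50 to 13.9 CPM. These 4 of 12 and 2 of 6 are near the 33.8% of all genes called higher. All 5 Kupffer cell markers were lower in null fat, 4 of them called, with sums of 5.01 to 14.2 against 81.0 to 150 CPM. Of 6 tested T cell markers 3 were higher and 3 lower, 2 of the latter called, and of 2 tested B cell markers 0 were called. The part of these cells in the difference was not tested.

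Ordered by mean FPKM over the 4 groups, 9 of the 10 members ran from hHKDC1 OE fat to null fat and then to the liver groups. Among these, hHKDC1 OE liver had the lowest mean for 7 and null liver for H2-DMb2 and H2-Ob, while H2-Oa had its lowest mean in null fat. For 8 members, H2-DMb2 and H2-Oa excepted, null fat did not overlap the group next below it, and for all 10 hHKDC1 OE fat did not overlap the group next below it. The liver groups overlapped each other for each member. H2-Oa was listed at 0.04 FPKM in null fat and in null liver and at 0.14 FPKM in hHKDC1 OE liver, levels that stand for 0 to 5 counts. Within a group, Cd74 was highest and H2-Eb1, H2-Ab1 and H2-Aa followed with overlapping ranges. H2-DMb1 and H2-DMa came next in 3 of the groups, while in hHKDC1 OE fat H2-DMb2 stood above them at 25.7 ± 19.9 FPKM (SD, n = 3), with overlapping ranges.

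The fat and liver effects were compared directly in an interaction fit over the 12 libraries. The fat effect minus the liver effect was above 0 for each of the 10 members, from 1.59 (SE 0.43) for H2-DMb1 to 5.95 (SE 2.88) for H2-Oa on the log2 scale, where 52.4% of all genes were above 0. Over the alternative fits H2-Oa ranged from 2.56 to 7.20 and Ciita from 1.18 to 3.38. In the reported fit the difference of effects is given below for 2 genes. This difference was 2.67 (SE 0.64, unadjusted p = 0.00129, adjusted p = 0.141) for H2-Aa and 2.17 (SE 0.53, unadjusted p = 0.00150, adjusted p = 0.143) for Cd74, by edgeR's quasi-likelihood test. None of the 10 passed an adjusted p of 0.05, as did 0% of the 17070 genes tested, and limma called 0 members. DESeq2 called 7 of the 10, and 1.59% of the 31243 genes given to it (497 genes). At an unadjusted p under 0.05, 9 of 10 members were past the threshold, all with the larger effect in fat, against 12.7% of all genes in either direction and 9.00% in this direction. H2-Oa, with at most 5 counts in each liver library, was the exception (unadjusted p = 0.0608 by edgeR).

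The genes whose pattern over the 6 fat libraries was nearest to the mean of Cd74, H2-Aa, H2-Ab1 and H2-Eb1 were Csf3r, Syk, Tyrobp, Apbb1ip, Susd3, Lad1, Rassf2, Cfp, Cyth4 and Adam8. Likeness was the root mean square difference of centred log2(CPM + 1) values, which was 0.139 to 0.211 for these 10 of 16370 genes, where the reference itself varied by 0.972. Among the members, H2-DMa was as near at 0.141. H2-DMb1 (0.370) and Ciita (0.377) were farther, and H2-Oa (1.11), H2-DMb2 (1.48) and H2-Ob (1.58) differed from the reference by more than it varied. In liver the nearest genes were Gimap3, Sh3tc1, Atp10d, Gm49396, Gm44434, Fam189b, Gm48372, C730034F03Rik, Dimt1 and Gm12319 (0.134 to 0.243 over 6 libraries), none of which was among the nearest in fat.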

How the data were processed

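Libraries of non-strand-specific RNA-seq were mapped by the authors with STAR (2.5 in the submitters' processing notes) and counted per gene with HTSeq 0.6.1. The deposited counts are whole numbers without normalization, and the deposited FPKM values were checked against them (252371 values within 1% of 1 factor per library times count over length). That factor does not follow depth on genes, which was 17117206 counts in null liver replicate 1 and 17738258 in null fat replicate 1. In these 2 libraries H2-Ab1 had 164 counts and 8.67 FPKM, and 2719 counts and 74.7 FPKM. FPKM levels set side by side across tissues rest on this factor. The methods name a human genome, whereas the identifiers are mouse Ensembl genes, of which 98% have the same position in GENCODE vM21 (GRCm38). Of the members 3 do, and the other 7 overlap their vM21 span, with a start or end that differs by up to 15641 bases. Columns of the authors' own comparison (log2 fold changes and p-values in the deposited table) were not used.

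From the counts, edgeR 4.0.16 (TMM, filterByExpr, quasi-likelihood test) was fitted per comparison in R 4.3.3, with Benjamini-Hochberg adjustment over all genes tested and a threshold of 0.05. DESeq2 1.42.0 and limma 3.58.1 (log2(FPKM + 1) and log2(FPKM + 0.1), keeping genes whose mean FPKM reached 0.1), other scalings, filters and designs and each library left out were alternatives. The scripts were tested on simulated data. Same-numbered null and hHKDC1 OE libraries correlated at 0.104 to 0.219 in their deviations from the group means in liver. The labels give no pairing of these samples, and 3 such correlations cannot settle whether they are paired. The reported liver fit has no block, and a fit with the replicate number as a block called 0 members there too. The members and lists were chosen with earlier results of these data known. Named genes were the 10 members, preset genes of the related lists, the defining marker of each cell type list and the 10 nearest patterns per tissue, of which some preset genes are not reported here. H2-Ea-ps, March8, Cd40, Cd80, Cd86, Ccr7, Lyz2, Mertk, Tcf4, Bst2 and Ccr9 were named after their values were seen. Lists are counts and medians without a set test.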

Additional observations from a re-analysis of the deposited data

How the results depend on the processing

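In fat, the count of members called at an adjusted p of 0.05 was 0 in the reported fit, 10 with DESeq2 (adjusted p at most 0.000636), 10 with no filter on low counts, 8 with the 12 libraries in 1 fit and 5 with the replicate block, and 0 to 10 over fits without 1 library each, where 10 came without hHKDC1 OE fat replicate 2 and 0 in the other 5. Same-numbered fat libraries correlated at -0.14 to 0.04, and the reported fat fit has no block either. All 158 values of single members kept their direction in fat. In liver, 3 members were called lower with no filter on low counts and 0 under the other alternatives, and 4 of 104 values turned their sign, each without 1 library: Ciita ranged from -0.97 to 0.12 (above 0 without null liver replicate 2), H2-DMa from -0.30 to 0.18 (without null liver replicate 3; 0.10 without hHKDC1 OE liver replicate 2) and H2-DMb1 from -0.49 to 0.062 (without null liver replicate 3). Between null fat and null liver 6 to 8 members were called in each fit, beside 36.5% to 74.0% of all genes. For the difference between the fat and liver effects, 7 were called with DESeq2 and with no filter on low counts, and 0 to 7 without 1 library each, 7 of them without hHKDC1 OE fat replicate 2. The cause of these changes was not tested. The replicate block called 0 members in liver, 6 between tissues and 0 for the difference of effects, and changed no other call. Of all genes, 0 were called in fat in the reported fit, 1446 with DESeq2, 803 with no filter, 876 with the 12 libraries in 1 fit, 168 with the block and 3251 without hHKDC1 OE fat replicate 2; in liver 0, 94 with DESeq2, 327 with no filter, 17 with the block and 146 without hHKDC1 OE liver replicate 2; and for the difference of effects 0, 497 with DESeq2, 479 with no filter and 1211 without hHKDC1 OE fat replicate 2. With library size alone the median of all genes moved from -0.05 to 0.11 in fat and from 0.09 to 0.97 between tissues. Members under 10 counts in at least 1 library, H2-Oa, H2-Ob, H2-DMb2 and Ciita in liver and H2-Oa and H2-DMb2 in null fat, are limited by depth.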
